A study of Mus musculus with 8 samples.

Results

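The genes described here are 8 regulators of cohesin in mouse cortical neurons: Nipbl and Mau2, Wapl, Pds5a and Pds5b, Esco1 and Esco2, and Cdca5. They were chosen by name, for the step of the cohesin cycle that each encodes, and are 8 of 21900 protein-coding genes in the RefSeq annotation of GRCm38.p6. For each gene, all SMC1 chromatin immunoprecipitation sequencing (ChIP-seq) peaks within 50 kb of the annotated gene body were taken. These were 12 of 12359 peaks from resting neurons and 4 of 1684 peaks from neurons given NMDA, an agonist of NMDA-type glutamate receptors.

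The cultures were WT cortical neurons dissociated from E16 Swiss-Webster embryos and used at day 13 in vitro (DIV13). The resting group had no treatment. The other group received 50 µM NMDA for 10 min, then 50 min without the drug. Each group had 2 SMC1 ChIP samples labelled as biological replicates and 2 input samples, so the series holds 8 samples. The labels do not say whether replicates came from separate litters, and etoposide, which the growth text mentions, is the treatment of no sample. The protocol names CTCF at the elution step, whereas the antibody label and the titles name SMC1.

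Cohesin is a ring of SMC1, SMC3, RAD21 and a STAG subunit that holds sister chromatids together in dividing cells and folds interphase chromatin into loops, many of them anchored at CTCF sites. NIPBL with MAU2 loads the ring and drives loop extrusion. WAPL, with a PDS5 protein, releases it. ESCO1 and ESCO2 acetylate SMC3, which stabilises the ring, and sororin, the product of Cdca5, protects acetylated cohesin from WAPL after DNA replication. Neurons no longer divide, so cohesin is studied there mainly for its part in chromatin loops.

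The deposited data were 1 list of reproducible peaks per condition. Peak strength here is the −log10 p that the peak caller gave to a peak in each replicate, or the sum of both replicate values. These are values as the authors deposited them, in columns without names whose meaning was inferred. The list medians were 15.0 and 14.5 in the first and the second replicate column at rest, and 12.9 and 10.1 after NMDA. The columns carry no replicate numbers, library depths are unknown from these files, and a −log10 p grows with depth, so strengths were ranked within a list only and sizes were not compared between lists. With 1 list per condition no p-value is given. With 2 replicate values on each side, the smallest p of an exact permutation test would be 0.33. SMC1 peaks do not measure expression and so do not check the cell type. Over all protein-coding genes 62.3% had a resting peak and 16.9% an NMDA peak within 50 kb. Of 8 neuronal marker genes 5 had a resting peak (62.5%) and 0 an NMDA peak. Resting and NMDA peaks lay near 5 and 1 of 7 astrocyte markers and 6 and 4 of 6 oligodendrocyte lineage markers. They lay near 4 and 1 of 5 microglial, 2 and 0 of 4 endothelial, and 5 and 4 of 5 progenitor markers. Olig1 and Olig2, both among the oligodendrocyte lineage markers, were counted for the same NMDA peak.

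SMC1 lay in the bodies of Nipbl, Pds5b and Esco1 at rest, and in those of Nipbl and Esco1 also after NMDA. Wapl and Pds5a had no peak within 50 kb in either list. Around Mau2, Esco2 and Cdca5, every peak within 50 kb lay closer to another gene than to the regulator. Cdca5 was the member with an NMDA peak at a site that had no resting peak, 23.4 kb away at Znhit2.

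Of the 8 genes, 6 had a resting peak within 50 kb (75%, exact Clopper-Pearson 95% interval 34.9 to 96.8%), against 62.3% of all protein-coding genes. An NMDA peak lay within 50 kb of 3 of the 8 (37.5%, interval 8.52 to 75.5%), against 16.9% of all. The same 3 genes, Nipbl, Esco1 and Cdca5, had a peak in both lists, against 15.3% of all protein-coding genes. The intervals cover counting error over genes only. Both contain the background share but are wide, so 8 genes cannot show whether these counts differ from it. Peaks inside the gene body were found for 3 of 8 at rest (background 25.4%) and for 2 of 8 after NMDA (background 6.57%). Within 10 kb the counts were 4 of 8 at rest (background 38.2%) and 2 of 8 after NMDA (background 8.94%).

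The choice of window set these counts. Within 2 kb a resting peak was found for 3 of the 8 genes and 28.6% of all, and within 100 kb for 8 of 8 and 73.8% of all. After NMDA the counts were 2 of 8 within 2 kb (7.21% of all) and 6 of 8 within 100 kb (24.9% of all). Just inside the 50 kb limit lay the nearest resting peaks of Mau2, at 45.0 kb, and Cdca5, at 48.7 kb. Just outside it lay those of Wapl, at 55.2 kb, and Pds5a, at 65.4 kb. Long genes also meet more peaks. Among protein-coding genes over 100 kb, such as Nipbl (175 kb) and Pds5b (137 kb), 82.1% had a resting peak within 50 kb. Among those under 20 kb, such as Esco2 (14.9 kb) and Cdca5 (6.68 kb), 54.6% did.

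**Figure D1:**
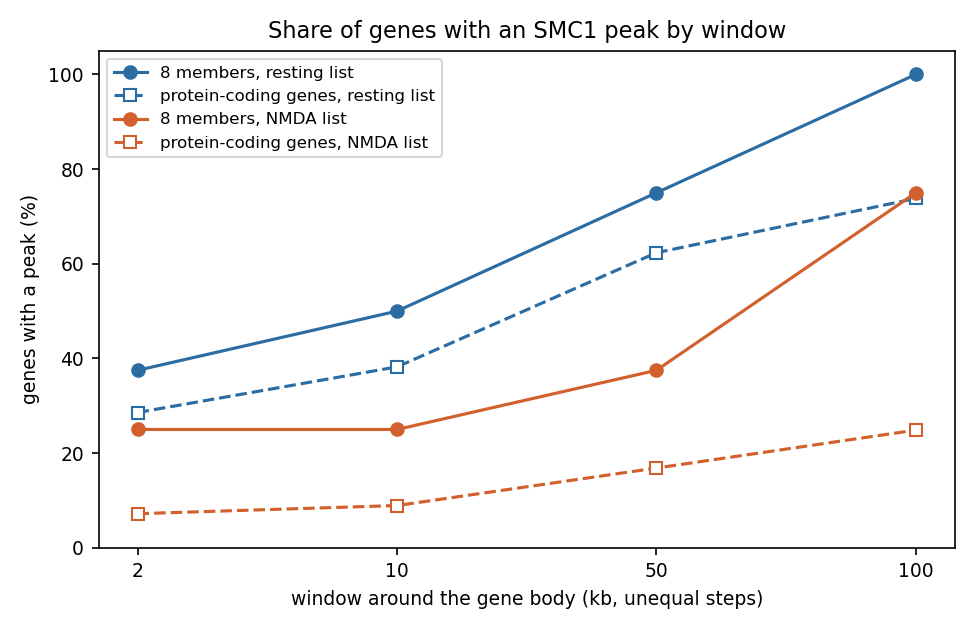
Share of genes with an SMC1 peak (vertical axis, %) by window around the gene body (horizontal axis, kb, in unequal steps). Circles joined by solid lines are the 8 regulator genes, squares joined by dashed lines all 21900 protein-coding genes, blue the resting and orange the NMDA list. The regulators go from 3 to 8 of 8 genes at rest and from 2 to 6 of 8 after NMDA as the window widens from 2 to 100 kb.

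**Figure D2:**
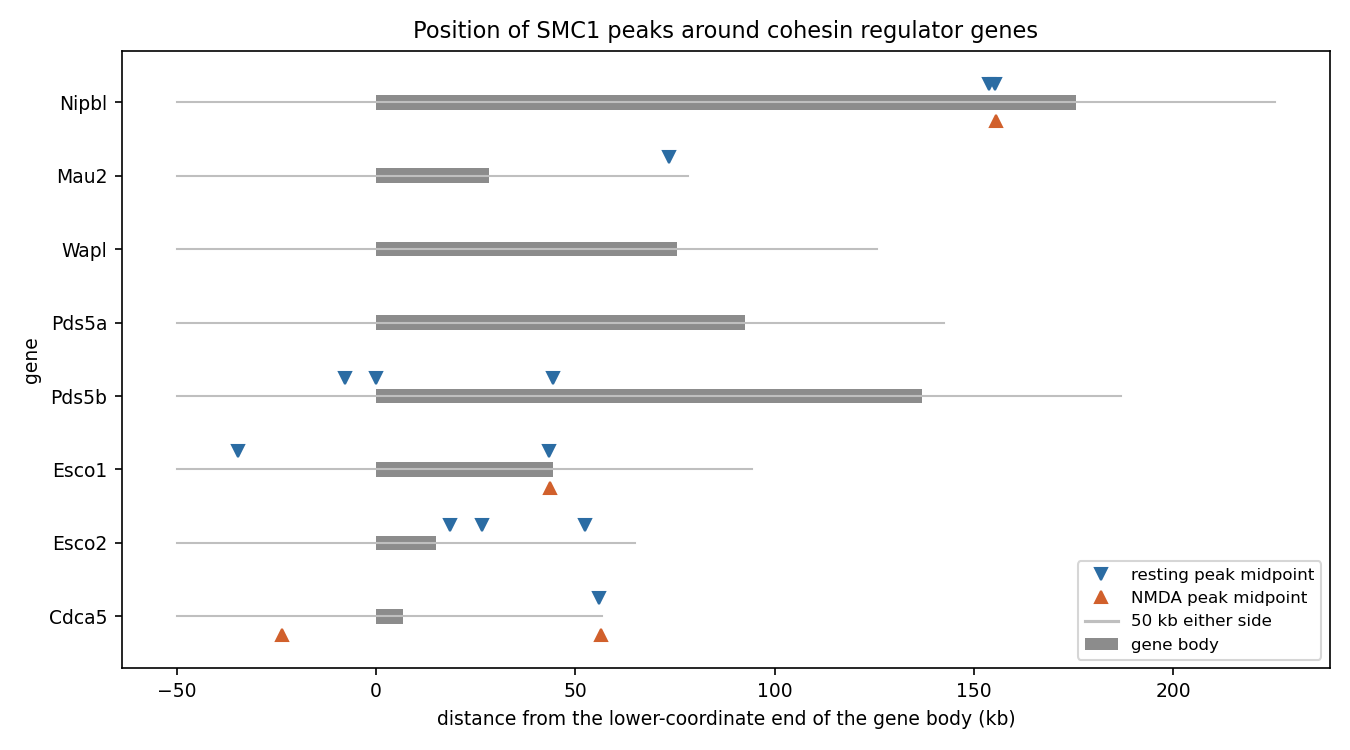
Midpoints of the SMC1 peaks (blue, resting, above each line; orange, NMDA, below it) around each gene, as distance in kb from the lower-coordinate end of the gene body. Grey bars are gene bodies and thin lines the 50 kb on either side. Peaks sit on the bars of Nipbl, Pds5b and Esco1, beyond the bars of Mau2, Esco2 and Cdca5, and nowhere along Wapl and Pds5a.

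Of the loading genes, Nipbl had listed SMC1 peaks in its body in both conditions and Mau2 in neither. Nipbl encodes the loader itself, and its mutation is the main known cause of Cornelia de Lange syndrome. The gene lies at chr15:8289824-8465315 and held 2 resting peaks, 386 bp apart. The stronger, at chr15:8444614-8445814, had 25.3 and 26.9 in the replicate columns, a sum of 52.2 (mean 26.1 ± 1.11, SD, n = 2). Its replicate values were nearly equal, and it ranked 1796 of 12359 (above 85.5% of the list). The weaker, at chr15:8443154-8444228, had 12.6 and 17.1, ranked 6327, and was 1075 bp wide in the first column but 338 bp in the second.

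After NMDA, 1 peak remained listed in Nipbl, at chr15:8444823-8445765. It lay wholly inside the stronger resting peak and covered 78.5% of it. Its values were 14.8 and 9.05, a sum of 23.9, which ranked 738 of 1684 (above 56.2% of the list). The value 9.05 in the second column is shared by 145 of the 1684 NMDA peaks (8.61%), so that column sorts peaks coarsely. The weaker resting peak had no NMDA partner. Both resting peaks and the NMDA peak lay 19.5 to 21.1 kb inside the upper-coordinate end of the Nipbl record. They also fell on LOC102634078, an overlapping protein-coding record whose end was 49 bp from the stronger resting peak and 98 bp from the NMDA peak. Which of the overlapping records the peaks belong to was not tested. The annotation used gave no strand or start for Nipbl, so whether the peaks lay at a start of the gene is unknown here.

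Mau2, also called Scc4 in other species, encodes the partner that keeps NIPBL stable. Its gene, at chr8:70014527-70042734, had no peak in the body. The 1 resting peak within 50 kb, at chr8:70087749-70088254, had 12.3 and 18.6 in the replicate columns, a sum of 30.9, and ranked 5931 (above 52.0% of the list). It lay 45.0 kb from Mau2, inside Hapln4, which encodes a link protein of the perineuronal matrix. Mau2 had no NMDA peak within 50 kb. The nearest, 124 kb away at chr8:70166740-70167330, lay on Mef2b, a gene for a MEF2 family transcription factor, and had 30.7 and 9.05.

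The release genes differed among themselves: the paralogues Pds5a and Pds5b lay on the same chromosome, and only Pds5b had peaks within 50 kb. PDS5 proteins bind the ring, recruit WAPL for its release and also serve the acetylation of SMC3. Pds5b, at chr5:150673713-150810669, had 3 resting peaks. The peak over its start, at chr5:150673319-150673888, had 23.8 and 10.8, a sum of 34.7, and ranked 4790 (above 61.2% of the list). The first value was 2.20 times the second, the highest such ratio among the 12 resting peaks near the regulators. A peak 7.54 kb outside the body, at chr5:150665681-150666169, had 16.2 and 19.3, a sum of 35.5, and overlapped the promoter window of N4bp2l2. The third, at chr5:150717852-150718110, lay 44.0 kb into the gene with 7.69 and 14.3, a sum of 22.0 (above 19.6% of the list). By the sums, the peak at the start and that at N4bp2l2 were above the list median of 30.2, and the internal one below it. The start peak was above 77.7% of the list in the first column but above only 26.5% in the second, and the internal peak above 2.72% and 48.1%. The start peak also fell on Gm40353, another protein-coding record, and which record it belongs to was not tested.

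None of the 3 Pds5b peaks overlapped an NMDA peak. The nearest NMDA peak, at chr5:150594271-150595117, was 78.6 kb away inside N4bp2l1, with 12.2 and 8.03.

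The Pds5b start is the 1 member promoter in the RefSeq promoter table that lay under an SMC1 peak. The table, for GRCm38.p6, covers 250 bases before and 50 bases after each listed start and matched 5 of the 8 genes by symbol: Pds5a, Pds5b, Mau2, Wapl and Cdca5. The sequences are of the reference strain and not of Swiss-Webster mice. Promoters were searched on both strands for the core of the CTCF site, taken as CC, any 3 bases, AG, any 2 bases and GGC. Of all 32851 promoter windows 8.61% held this core. A resting peak overlapped 9.27% of the windows and an NMDA peak 3.53%, and of the 3045 windows under a resting peak 20.5% held the core. A match is a string of letters and does not show that CTCF binds there.

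The windows are printed 5′ to 3′ on the strand of the gene, with the CTCF core in capitals, to set the Pds5b promoter beside that of its paralogue and beside promoters of neighbouring genes that peaks overlapped. Pds5b is at chr5:150673577-150673876 on the plus strand, Pds5a at chr5:65698187-65698486 on the minus strand, N4bp2l2 at chr5:150665563-150665862 on the minus strand and Arl2, a neighbour of Cdca5, at chr19:6141088-6141387 on the minus strand.
Pds5b: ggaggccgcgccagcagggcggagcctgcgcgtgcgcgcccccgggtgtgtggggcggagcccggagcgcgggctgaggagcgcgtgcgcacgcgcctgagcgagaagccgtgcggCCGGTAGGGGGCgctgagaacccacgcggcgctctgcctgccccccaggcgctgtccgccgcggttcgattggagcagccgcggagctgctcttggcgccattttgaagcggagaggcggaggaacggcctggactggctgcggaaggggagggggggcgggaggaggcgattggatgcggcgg
Pds5a: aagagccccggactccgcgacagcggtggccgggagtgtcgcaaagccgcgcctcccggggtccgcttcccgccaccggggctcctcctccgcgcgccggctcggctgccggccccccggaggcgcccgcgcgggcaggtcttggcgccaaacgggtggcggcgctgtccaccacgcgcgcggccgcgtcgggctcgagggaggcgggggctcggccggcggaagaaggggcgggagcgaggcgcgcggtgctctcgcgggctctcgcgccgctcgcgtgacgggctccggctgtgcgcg
N4bp2l2: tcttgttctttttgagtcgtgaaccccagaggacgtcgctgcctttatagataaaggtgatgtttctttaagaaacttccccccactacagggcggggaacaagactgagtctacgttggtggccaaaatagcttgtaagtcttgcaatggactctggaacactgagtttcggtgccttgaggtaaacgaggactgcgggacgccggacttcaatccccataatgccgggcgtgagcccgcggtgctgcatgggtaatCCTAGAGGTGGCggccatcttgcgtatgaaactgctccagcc
Arl2: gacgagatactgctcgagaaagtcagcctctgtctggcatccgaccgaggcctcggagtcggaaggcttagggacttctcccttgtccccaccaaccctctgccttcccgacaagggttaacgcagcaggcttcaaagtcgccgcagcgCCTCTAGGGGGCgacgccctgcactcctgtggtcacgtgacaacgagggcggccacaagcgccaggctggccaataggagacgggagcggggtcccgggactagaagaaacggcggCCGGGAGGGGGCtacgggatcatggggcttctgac

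In the Pds5b window the core began 134 bases before the listed start, at chr5:150673693-150673704, on the strand of the gene. It lay inside the peak of both replicate columns, chr5:150673550-150673839 in the first and chr5:150673319-150673888 in the second. The Pds5a window held no such core and no peak, and was 80.3% G and C, against 75.7% for Pds5b and a median of 52.7% over all windows. The N4bp2l2 window held 1 core, 77 bp outside the resting peak that overlapped the window. The Arl2 window held 2. In all, 3 of the 4 windows under a peak near the regulators held the core (Pds5b, N4bp2l2 and Arl2, not Znhit2). Of these, only Pds5b is a member. The core was in 0 of the 5 member windows under no peak, which count Mau2 at each of its listed starts. Over all windows the core was in 20.5% under a resting peak, 18.7% under an NMDA peak and 7.29% under neither. These few windows cannot show a difference from those shares.

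Other factor motifs were searched in the same windows. The cAMP response element TGACGTCA, in 1.79% of all windows, was in none of the member windows. The shorter piece TGACG, in 20.8% of all, was in those of Pds5a, Wapl, Cdca5 and the upstream start of Mau2. The AP-1 motif TGANTCA (7.81% of all), the YY1 motif AAGATGGC (2.75%), TATAAA (13.6%) and the NRF1 motif (0.971%) were in no member window. CCCTC, a short piece of the CTCF site that 66.0% of all windows hold and that can overlap the core, was in the windows of Pds5a, Pds5b, Mau2 and Cdca5. Motifs were searched on both strands, and TGACG can lie within TGACGTCA.

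**Figure D3:**
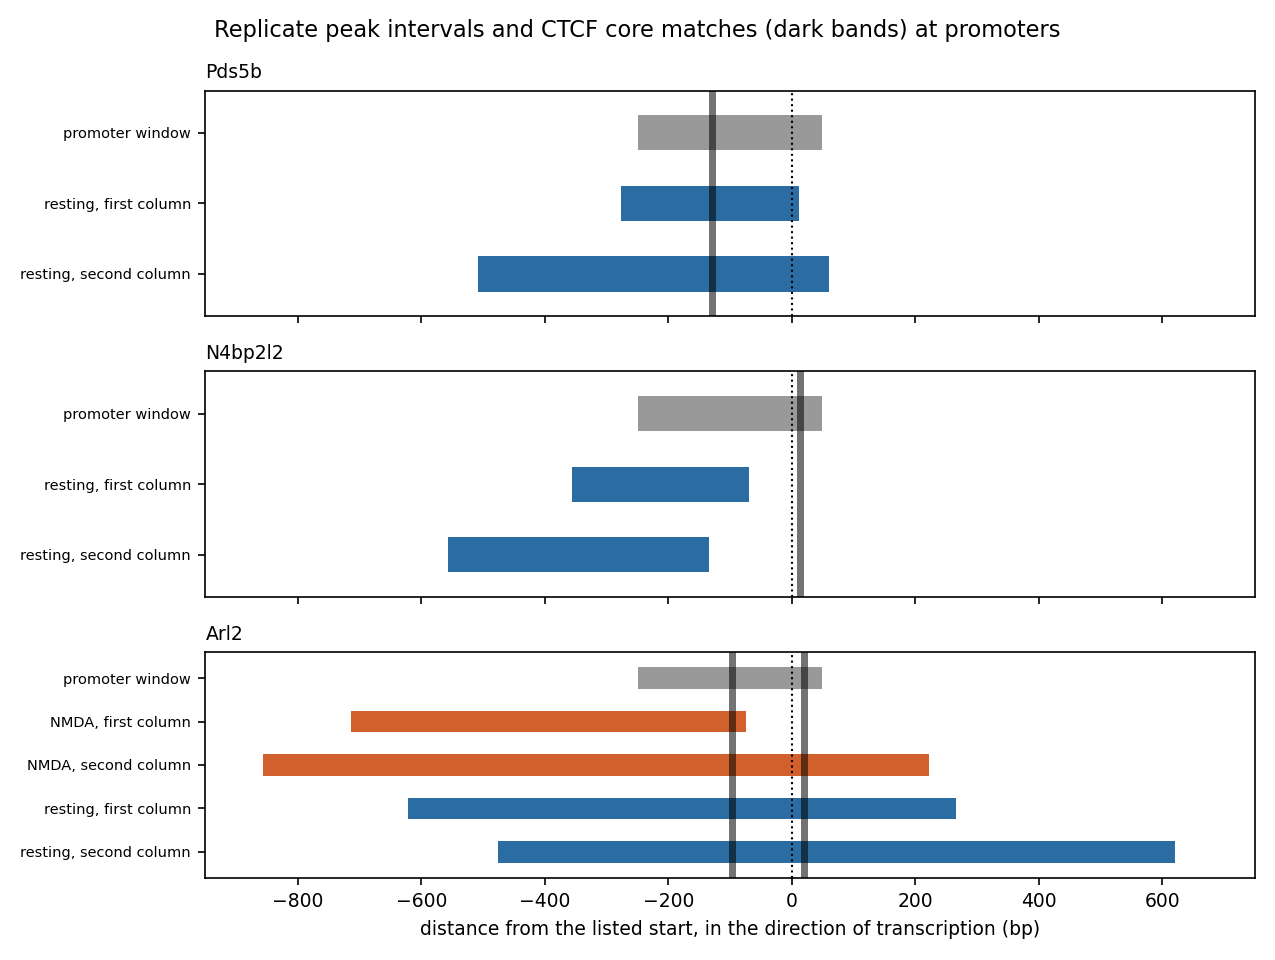
Promoter windows (grey), peak intervals of each replicate column (blue, resting; orange, NMDA) and CTCF core matches (dark bands) at Pds5b, N4bp2l2 and Arl2, as distance in bp from the listed start (dotted line) in the direction of transcription. The band at Pds5b lies within both resting intervals, that at N4bp2l2 outside both, and the upstream band at Arl2 within all 4 intervals.

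Wapl encodes the release factor itself. The gene, at chr14:34672379-34747983, had no peak within 50 kb in either list. The nearest resting peak, at chr14:34616858-34617222, had 24.0 and 9.39, a sum of 33.4, and lay on the noncoding gene Gm52113. The nearest NMDA peak, on the other side at 62.8 kb, chr14:34810771-34811467, had 8.83 and 9.05 and ranked 1678 of 1684. It lay 8536 bp from Grid1, a gene for a delta-type glutamate receptor. Both lists thus had a peak just outside the window, at different places.

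Pds5a, at chr5:65605719-65698236, likewise had no peak within 50 kb. The nearest peaks of both lists were at 1 place, inside N4bp2. The resting peak, at chr5:65763666-65764355, had 28.4 and 13.4, a sum of 41.8 (above 73.6% of the list). The NMDA peak over it, at chr5:65763035-65764759, had 17.3 and 8.03. Within 500 kb lay 9 resting peaks for Pds5a and 9 for Wapl, beside a median of 7 for protein-coding genes. For the other regulators this number went from 4 for Esco1 and 5 for Pds5b to 15 for Esco2.

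The acetylation genes were also unlike each other. A peak at the upper-coordinate end of Esco1 was found in both lists, and Esco2 had resting peaks outside its body only. The annotation used gave no strand or start for either gene, so which end is the start is unknown here. ESCO1 acetylates SMC3 throughout the cell cycle, and ESCO2 acts mainly during DNA replication and is the gene of Roberts syndrome. Esco1 lies at chr18:10566507-10610863. The resting peak at chr18:10609227-10610690, 173 bp inside the upper-coordinate end of the gene, had 16.6 and 11.5, a sum of 28.1 (rank 6991, above 43.4% of the list). The NMDA peak at chr18:10609442-10610773, 90 bp from that end, had 13.1 and 13.9, a sum of 27.0, and ranked 454 of 1684 (above 73.0% of its list). It covered 85.3% of the resting peak.

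By the sums, Esco1 had the highest-ranked NMDA peak of the 4 near the regulators, and its resting peak was below the list median. Neither held in the first replicate column alone, where the Nipbl NMDA peak ranked higher (above 66.4% of the list, against 51.0% for Esco1) and the Esco1 resting peak was above 56.7% of the list. The irreproducible discovery rate (IDR) is here the estimated share of peaks ranked at least as high that do not repeat between replicates. The Esco1 peak was the 1 NMDA peak among the 4 with an IDR below 0.01. No other gene overlapped either peak, and the nearest, Snrpd1, lay 7.02 kb from the NMDA peak. A further resting peak, 34.5 kb away at chr18:10531523-10532046, had 14.8 and 11.9, lay inside Greb1l and had no NMDA partner.

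Esco2, at chr14:65819027-65833969, had 3 resting peaks, all beyond its upper-coordinate end, and no NMDA peak. The nearest, 3.21 kb away at chr14:65837183-65838124, had 12.4 and 7.24, a sum of 19.7 (above 9.13% of the list), and covered an end of Ccdc25. The next, 11.4 kb away at chr14:65845329-65845789 inside Ccdc25, had 12.6 and 15.8, a sum of 28.4. The farthest, 37.3 kb away at chr14:65871232-65871742, was the strongest, with 14.8 and 28.7 and a sum of 43.5 (above 75.9% of the list). It lay 4.63 kb beyond Ccdc25, and its replicate values differed by 1.94 times. The nearest NMDA peak to Esco2 was 134 kb away, at Clu, the gene for the chaperone clusterin, with 12.5 and 9.05.

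Cdca5, which encodes sororin, had peaks at neighbouring promoters only. The gene lies at chr19:6085097-6091773 among closely spaced genes. Its 1 resting peak, 48.7 kb away at chr19:6140517-6141759, had 8.36 and 8.54, a sum of 16.9, and ranked 12341 of 12359. It covered the start of Arl2, a gene for a small GTPase of the ARF family. The NMDA peak there, at chr19:6140914-6141994, had 11.5 and 9.82, a sum of 21.3 (rank 1112 of 1684). Of the 2 CTCF cores in the Arl2 window, that 101 bases before the listed start lay inside the interval of all 4 replicate columns. That 16 bases after it lay inside both resting intervals and the second NMDA interval.

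A second NMDA peak near Cdca5, 23.4 kb away at chr19:6061053-6061676, had 8.83 and 10.1, a sum of 18.9 (rank 1548 of 1684). It covered the start of Znhit2, a zinc finger HIT gene, and no resting peak overlapped it. The value 10.1 in the second column is shared by 114 NMDA peaks. The resting peak at Arl2 was near the bottom of its list in both columns (above 7.31% and 9.30% of it). The Znhit2 peak was low in the first column (above 8.02% of the NMDA list) but near the middle in the second (48.8%).

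**Figure D4:**
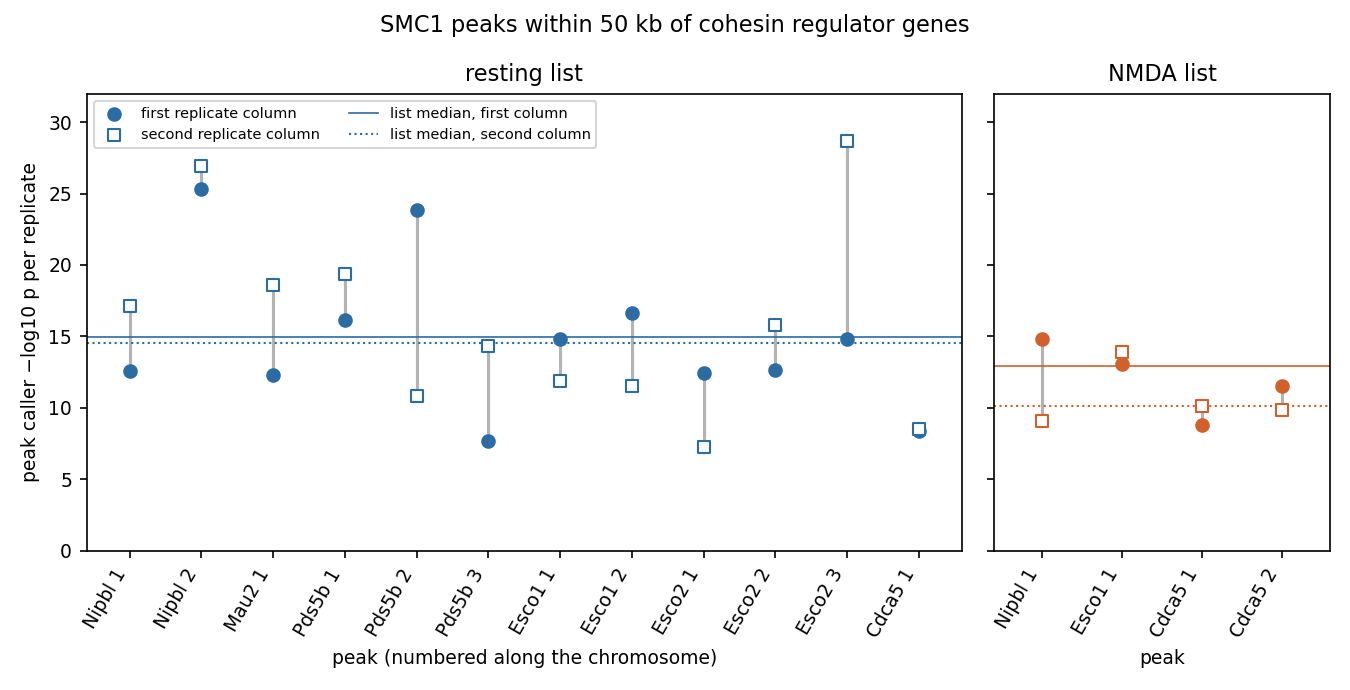
Peak caller −log10 p (vertical axis) in the first (filled circle) and the second replicate column (open square) for the 12 resting (blue) and 4 NMDA peaks (orange) within 50 kb of a regulator gene, numbered along the chromosome for each gene. Horizontal lines are the list medians of each column. Both values of Nipbl peak 2 at rest (25.3 and 26.9) lie above the medians, and both of Cdca5 peak 1 (8.36 and 8.54) below them.

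The strongest resting peak within 50 kb of each gene gave the order Nipbl (sum 52.2), Esco2 (43.5), Pds5b (35.5), Mau2 (30.9), Esco1 (28.1) and Cdca5 (16.9). Only those of Nipbl and Esco1 lay in the gene body. Those of Esco2, Pds5b, Mau2 and Cdca5 lay 37.3, 7.54, 45.0 and 48.7 kb away and closer to another gene, so the order is not one of SMC1 on the genes themselves. Neighbours in this order overlapped in their replicate values down to Esco1. Nipbl spanned 25.3 to 26.9, Esco2 14.8 to 28.7, Pds5b 16.2 to 19.3, Mau2 12.3 to 18.6 and Esco1 11.5 to 16.6. Cdca5, at 8.36 to 8.54, lay below all of them. After NMDA the order was Esco1 (27.0), Nipbl (23.9) and Cdca5 (21.3, the peak at Arl2). Replicate values overlapped between neighbours: 13.1 to 13.9, 9.05 to 14.8 and 9.82 to 11.5.

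As a set the peaks near the regulators were of middling strength. The 12 resting peaks had a median sum of 29.1, against 30.2 for the list, and 5 of them were above the list median. Their ranks ran from above 0.12% to above 85.5% of the list. The 4 NMDA peaks had a median of 22.6, against 23.0 for the list, and 2 were above it. The second column was the higher in 8 of the 12 resting peaks, and the higher value exceeded the lower by 1.02 to 2.20 times.

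**Figure D5:**
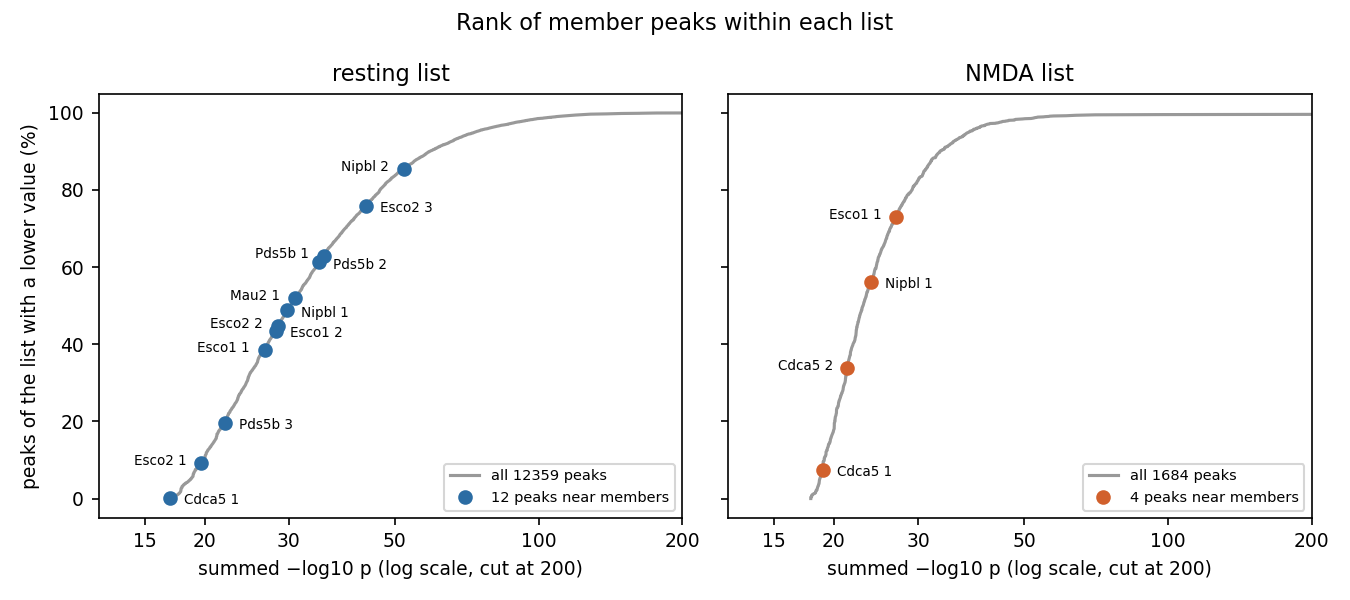
Share of peaks of the same list with a lower summed −log10 p (vertical axis, %) against the summed −log10 p (horizontal axis, log scale, upper end not shown). The grey line is the whole list, and points are the peaks near regulator genes, 12 at rest and 4 after NMDA. The points spread along the whole lower and middle part of each curve, up to Nipbl peak 2 at rest and Esco1 peak 1 after NMDA.

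An NMDA peak overlapped 3 of the 12 resting peaks (25%, exact interval 5.49 to 57.2%), against 10.7% of all resting peaks. This interval covers counting error over peaks only and treats neighbouring peaks, such as those in Nipbl, as independent. In the other direction 3 of the 4 NMDA peaks overlapped a resting peak, against 75.8% of all NMDA peaks. The 3 shared sites lay in Nipbl, at the upper-coordinate end of Esco1 and at Arl2 near Cdca5. Their resting sums were 52.2, 28.1 and 16.9, and their NMDA sums 23.9, 27.0 and 21.3. The shared sites therefore included both the strongest and the weakest of the 12 resting peaks. The Nipbl site ranked above the Esco1 site at rest, but below it by the NMDA sums. In the first NMDA column alone Nipbl was the higher (above 66.4% of the list, against 51.0% for Esco1), and in the second, where its value is a common tie, the lower (33.3% against 83.6%).

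Other genes of the cohesin cycle and its relatives were counted in the same way, in 8 lists of 45 genes. Resting peaks were found within 50 kb of 32 genes (71.1%) and NMDA peaks within 50 kb of 10 (22.2%), beside the 62.3% and 16.9% of all protein-coding genes. Of the ring genes and Ctcf, 3 of 6 had a peak in both lists: Stag1, Smc3 and Ctcf, the strongest at Stag1 with 77.7 and 58.5 at rest. Rad21, Stag2 and Smc1a had none. All 5 germ line genes of the ring and of the CTCF paralogue Ctcfl had a resting peak within 50 kb and 0 an NMDA peak. The strongest resting peak of each lay outside the gene, 8196 bp (Stag3) to 18997 bp (Smc1b) away. Within 10 kb the counts were 3 and 0 of 5 (38.2% and 8.94% of all genes). Hdac8, which removes the acetyl groups that ESCO1 and ESCO2 add, spans 221 kb and had no peak in either list. Hdac8, Stag2 and Smc1a lie on chromosome X, for which background shares were not counted separately. Med12, also on X, had a resting peak and no NMDA peak.

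The counts of single lists are small and stand beside the same shares of all protein-coding genes, 62.3% at rest and 16.9% after NMDA. All 8 genes of replication fork cohesion had a resting peak within 50 kb, and 1 of them, Chtf18, an NMDA peak, 45891 bp away. Within 10 kb these counts were 4 and 0 of 8 (38.2% and 8.94% of all genes). Of the 7 genes of mitotic removal and protection, 3 had a resting and 1 an NMDA peak. The latter was Haspin, a histone kinase gene, with 49.9 and 46.1 at rest and 13.7 and 11.2 after NMDA. Among partners of the loader, 3 of 4 had a resting and 2 of 4 an NMDA peak. Of the 8 genes of condensin, the mitotic relative of cohesin, 5 were near a resting peak and 2 near an NMDA peak. For the SMC5 and SMC6 complex, which works in DNA repair, the counts were 5 and 1 of 6.

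The replicate values of the Nipbl site were compared with those of other protein-coding genes whose strongest resting peak within 50 kb was overlapped by an NMDA peak. Likeness was the Euclidean distance between percentile ranks in the 4 replicate columns, over 1914 genes and leaving out genes that share the Nipbl peak. The closest were Col9a3, Mrgbp, Ogfr and Tcfl5, tied at a distance of 6.44 points because they share 1 peak, at chr2:180582272-180583172. That peak had 24.8 and 31.3 at rest, and the NMDA peak over it 14.6 and 9.05.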

How the data were processed

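SMC1 ChIP-seq of 4 ChIP samples, with 4 input samples, was available as 1 peak list per condition. Reads were handled with MACS2, BWA, SAMtools, Trimmomatic and FastQC on mm10, also given as GRCm38.p6, per the submitters' processing notes. Tool settings were not given in the sources used here. In these lists the authors deposited, in columns 15 and 19 of each list, the −log10 p of the peak in each replicate, and in column 8 their sum. The deposited lists also hold an IDR score up to 1000, not used here, and the −log10 of the global IDR, which limits both lists to an IDR of 0.05.

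From these lists, peaks within 50 kb of a gene body in the RefSeq table of GRCm38.p6 were assigned to every such gene, and peaks overlapping by at least 1 bp were called shared. Starts were taken from the promoter table where it lists a gene, otherwise from either end of the body. Distances run from the nearest base of a peak. The depth of the libraries is unknown from the lists, so no depth correction was made. Groups came from the titles. Named are all 8 members, all peaks within 50 kb of them, any gene nearer to such a peak, and the genes most like the strongest shared member. Genes of the pathway lists, and genes at the nearest peaks beyond 50 kb, were named after their values were seen. The members and lists were chosen with earlier results of these data known. Counting, overlap and motif steps were tested on simulated data in Python 3.11.15 with pandas 2.3.3. Windows, IDR limits, overlaps, start distances and single replicate columns were varied. Input samples were not analysed here.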

Additional observations from a re-analysis of the deposited data

How the results depend on the processing

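The count of regulator genes with a resting peak (6 of 8 within 50 kb) was 3 within 2 kb. It was also 3 when a peak counted only for the nearest protein-coding gene, ties included, a setting chosen after seeing the data. Those 3 were Nipbl, Pds5b and Esco1. Nipbl was counted through ties only, because both of its resting peaks also fell on LOC102634078. The count with an NMDA peak (3) was 6 within 100 kb and 1, Esco1, at an IDR up to 0.01. The count of their resting peaks overlapped by an NMDA peak (3) was 5 within 100 kb and 1 when both lists were limited to an IDR of 0.01, and it was 3 with 50% overlap of the shorter peak or of both. The 3 peaks within 1 kb of a start or end of a member, 1 at Pds5b and 2 at Esco1, were also 3 within 500 bp and within 2 kb. With single replicate columns the median percentile rank of the resting peaks went from 40.8 to 51.9 (46.8 with both) and that of the NMDA peaks from 44.4 to 47.7 (45.1 with both). Ranks of single peaks moved far more, for example at Pds5b peak 3 at rest from above 2.72% to above 48.1% of the list (19.6% with both), so the place of a peak within its list often rests on 1 replicate column. No paired analysis was possible because the replicate columns carry no replicate numbers and no result comes from a test. Peaks that failed the IDR limit were not analysed here, so a gene without a peak may still hold SMC1 below that limit.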
